A study of Homo sapiens with 12 samples.

Results

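KDM2B peaks of the T-cell acute lymphoblastic leukaemia (T-ALL) line JURKAT are described here. They comprise every peak of the JURKAT list, 14839 of the 79473 peaks listed over 7 leukaemia cell lines, and no measured value was used to choose them. KDM2B binding was mapped by ChIP-seq, the sequencing of DNA precipitated with a protein, in JURKAT, in 3 other T-ALL lines (DND41, HPB-ALL and SIL-ALL) and in 3 lines that are not of the T lineage: K562, a chronic myeloid leukaemia line, and REH and SUP-B15, which are B-cell precursor lines. All lines were grown in the same medium and precipitated with the same antibody, without any labelled treatment or genetic change. JURKAT is a long-cultured line that expresses the TAL1 oncogene, and a single culture of it does not stand for T-ALL as a disease. The lineages are background knowledge of the named lines and are not in the labels.

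JURKAT, like every other line, was represented by a single KDM2B library, and its peaks are not replicates of each other. A comparison of JURKAT with the 3 other T-ALL lines cannot give an exact permutation p below 0.25, and one with all 6 other lines cannot go below 0.14. No comparison of JURKAT with other lines could therefore pass the threshold of 0.05. The labels list an input library for 5 lines but not for JURKAT or DND41, and the control used in calling each list is unknown. No input signal was used here, and the number of reads behind the lists is unknown. Shares carry 95% intervals by the method of Wilson, which reflect nothing but the number of peaks counted.

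KDM2B removes methyl groups from histones through its JmjC domain, and its CXXC zinc finger recognises DNA rich in unmethylated CG dinucleotides. It brings a variant Polycomb repressive complex 1, which ubiquitinates histone H2A, to CpG islands at gene starts. In blood cells it is known as a regulator of stem and progenitor cells and of lymphoid leukaemias.

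The sequences that follow are single examples of DNA at gene starts with and without a JURKAT peak, and no comparison rests on them. Each is the 250 bases before the annotated start of a gene, 5′ to 3′ on the gene's strand, from RefSeq (GRCh38.p14), with every CG dinucleotide in capitals. They were read by gene symbol from another genome build than hg19, the build of the lists, so they are the promoters of the genes and not the peaks themselves. Each gene stands for 1 pattern of listing within 1000 bp of its start. IL6ST (chr5:55994964-55995213, minus strand), which encodes the shared cytokine receptor subunit gp130, had a peak in all 7 lists and holds 31 CG. INTS14 (chr15:65611132-65611381, minus strand), an Integrator complex subunit, had a peak in the 4 T-ALL lists and no other and holds 27 CG. EXOSC2 (chr9:130693510-130693759, plus strand), an RNA exosome subunit, had a peak in JURKAT alone and holds 15 CG. R3HCC1L (chr10:98134407-98134656, plus strand) had a peak in the 3 other T-ALL lists but not in JURKAT and holds 22 CG. TAS1R3 (chr1:1331030-1331279, plus strand), a taste receptor subunit, had a peak in no list and holds 10 CG. Over all 27305 genes of the RefSeq promoter table the median is 11 CG in such a window. A comparison of CG content between sampled genes with and without a JURKAT peak is void, because the table held a sequence for 79.8% of the 99 protein-coding genes with a peak, under the required share.
IL6ST: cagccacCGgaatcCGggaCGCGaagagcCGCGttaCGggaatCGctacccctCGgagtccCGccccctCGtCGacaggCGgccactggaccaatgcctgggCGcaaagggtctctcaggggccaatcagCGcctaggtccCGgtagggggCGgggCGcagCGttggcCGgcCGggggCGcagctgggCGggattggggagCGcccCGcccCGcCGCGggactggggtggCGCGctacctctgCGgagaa
INTS14: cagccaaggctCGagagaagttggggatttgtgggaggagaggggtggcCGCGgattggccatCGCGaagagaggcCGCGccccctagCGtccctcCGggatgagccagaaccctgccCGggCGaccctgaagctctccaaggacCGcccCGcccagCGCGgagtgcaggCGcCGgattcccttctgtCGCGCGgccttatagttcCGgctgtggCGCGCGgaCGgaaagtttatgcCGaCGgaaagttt
EXOSC2: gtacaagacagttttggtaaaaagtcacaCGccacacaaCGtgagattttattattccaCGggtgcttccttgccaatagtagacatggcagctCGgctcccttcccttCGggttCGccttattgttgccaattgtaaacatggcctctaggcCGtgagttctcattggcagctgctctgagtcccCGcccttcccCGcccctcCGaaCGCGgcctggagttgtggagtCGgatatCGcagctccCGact
R3HCC1L: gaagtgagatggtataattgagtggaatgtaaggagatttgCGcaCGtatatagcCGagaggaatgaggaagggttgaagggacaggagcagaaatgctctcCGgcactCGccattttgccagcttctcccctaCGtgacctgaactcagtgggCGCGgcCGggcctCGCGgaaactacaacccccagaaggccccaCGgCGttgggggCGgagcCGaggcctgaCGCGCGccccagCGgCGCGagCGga
TAS1R3: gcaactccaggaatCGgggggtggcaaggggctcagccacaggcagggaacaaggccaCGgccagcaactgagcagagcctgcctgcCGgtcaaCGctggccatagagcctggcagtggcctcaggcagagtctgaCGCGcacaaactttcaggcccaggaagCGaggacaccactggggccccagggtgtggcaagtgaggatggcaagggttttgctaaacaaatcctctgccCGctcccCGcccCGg

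As listed, JURKAT was close in length and median peak width to the other T-ALL lists. It covered 4.57 Mb, against 4.28 Mb in DND41, 4.34 Mb in HPB-ALL and 4.85 Mb in SIL-ALL, and 4.32, 2.10 and 3.38 Mb in K562, REH and SUP-B15. The median peak was 240 bp wide in JURKAT, against 213, 253 and 223 bp in DND41, HPB-ALL and SIL-ALL, so JURKAT lay within their range (difference from their mean 10.3 bp, two-sided exact permutation p = 1). After merging of peaks at most 500 bp apart, the median was 338 bp in JURKAT, below 424, 406 and 407.5 bp in the other T-ALL lists (exact permutation p = 0.25, the smallest possible). With a common score floor of 80.03, which left 7406 JURKAT peaks, the median was 343 bp in JURKAT. That was above 279, 253 and 223 bp in DND41, HPB-ALL and SIL-ALL (exact permutation p = 0.25, the smallest possible). Peaks of at least 1000 bp made up 1.92% of the JURKAT list, against 2.15, 3.13 and 3.37% of the DND41, HPB-ALL and SIL-ALL lists. The score of a peak is the authors' own value with no stated unit, and its lowest value was 50.01 in JURKAT but 60 in DND41, 80 in HPB-ALL and 80.03 in SIL-ALL. Apart from the common floor, which assumes 1 scale, scores were therefore read only as percentiles within a list. Higher scores went with wider peaks in JURKAT: the median width was 172 bp in the lowest score decile and 699 bp in the highest.

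JURKAT shared about as large a part of its peaks with each of the 3 other T-ALL lines, and a smaller part with each non-T line. A DND41 peak overlapped 48.8% of JURKAT peaks (95% interval 48.0 to 49.6%), an HPB-ALL peak 47.7% (46.9 to 48.5%) and a SIL-ALL peak 50.9% (50.1 to 51.7%). A K562 peak overlapped 29.4% (28.7 to 30.1%), a REH peak 21.0% (20.4 to 21.7%) and a SUP-B15 peak 29.3% (28.6 to 30.0%). The 3 T-ALL lists averaged 49.1 ± 1.66% and the 3 non-T lists 26.6 ± 4.81% (SD, n = 3 each), a difference of 22.6 percentage points, and the groups did not overlap. An exact permutation of the 6 lists between both groups, two-sided over 20 splits, gave p = 0.1, the smallest value possible here. The difference was as large as 33.5 points with a common score floor, 12.6 points with lists of the same length (the 5942 highest-scored peaks of each) and 11.6 points with 50% reciprocal overlap, so its size depended on the length of the lists and on how overlap was counted.

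The overlap is to be read against how often each list occurs among all regions. Merging of all lists gave 29071 regions, and 35.1% of them held a DND41 peak, 32.8% an HPB-ALL peak, 39.2% a SIL-ALL peak, 17.8% a K562 peak, 22.2% a REH peak and 20.6% a SUP-B15 peak. Among the 10737 regions with a JURKAT peak these shares were 46.8, 45.8, 49.0, 25.4, 24.6 and 28.1%, in the same order of lists. REH stood nearest to its share in all regions. As a ratio to that share, K562 stood highest of the other lists, and SUP-B15 stood above DND41 and SIL-ALL. By that ratio the T-ALL and non-T lists were thus not separated. In percentage points, the rise was larger for each T-ALL list than for each non-T list. Seen from the other lists, JURKAT overlapped 48.7% of DND41, 50.8% of HPB-ALL and 46.5% of SIL-ALL peaks, and 52.2% of K562, 38.8% of REH and 49.0% of SUP-B15 peaks. The share of the K562 list found in JURKAT was thus as high as that of the T-ALL lists. The K562 list was the shortest and its peaks the widest, with a median of 552 bp. Overlapping peaks lay close together, with a median distance between midpoints of 104 bp for DND41, 112 bp for HPB-ALL and 109 bp for SIL-ALL, and 194, 110 and 140 bp for K562, REH and SUP-B15.

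Sharing rose with the score of the JURKAT peak. In the lowest decile, 31.8, 30.7 and 35.9% of the peaks were overlapped in DND41, HPB-ALL and SIL-ALL, and 16.5, 9.58 and 14.6% in K562, REH and SUP-B15. In the highest decile the shares were 75.4, 70.1 and 72.9%, and 58.2, 50.5 and 60.4%. JURKAT peaks found in no other list made up 35.2% of the lowest decile and 4.11% of the highest, and peaks found in all 6 other lists 0.607% and 20.4%.

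**Figure D1:**
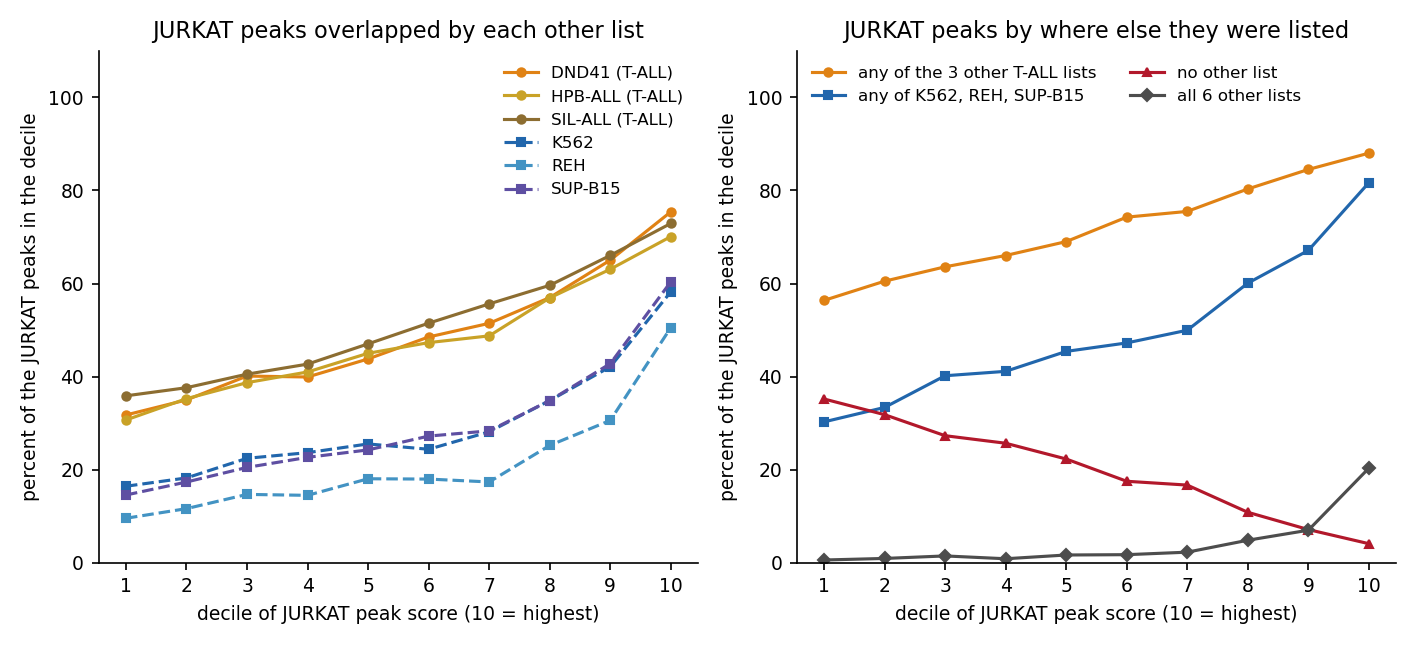
Left, percent of JURKAT peaks overlapped by each other list, by decile of JURKAT peak score (x axis, 10 is the highest), with solid lines for T-ALL lists and dashed lines for non-T lists. Right, percent of JURKAT peaks in each decile found in any other T-ALL list, any non-T list, no other list or all 6 other lists; the T-ALL lines lie above the non-T lines in every decile and the peaks in no other list drop to 4.11% in the highest.

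By overlap of at least 1 bp, JURKAT peaks most often had a counterpart in both T-ALL and non-T lists, then in T-ALL lists only. Peaks in no other list came next, and those in non-T lists only were fewest. The order depended on the overlap rule. With 50% reciprocal overlap, peaks in no other list were the largest class at 47.9%, against 43.2% in any other T-ALL list and 22.0% in any non-T list. Of the 14839 peaks, 10655 (71.8%, 95% interval 71.1 to 72.5%) overlapped at least 1 of the 3 other T-ALL lists and 7367 (49.6%, 48.8 to 50.5%) at least 1 non-T list. The peaks in T-ALL lists only numbered 4524 (30.5%), those in both kinds of list 6131 (41.3%), and those in non-T lists only 1236 (8.33%). All 3 other T-ALL lists overlapped 3942 peaks (26.6%). With 50% reciprocal overlap that share was 3.23%. Of all merged regions, 13.3% held a peak of all 3, but this counts regions and not peaks, so the shares are not on the same footing. Peaks in all 6 other lists numbered 621 (4.18%), and they had a median width of 483 bp and a median score percentile of 89.4 in the JURKAT list. The 966 peaks in all 3 other T-ALL lists and no non-T list (6.51%) had a median width of 253 bp and a median percentile of 56.2.

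JURKAT peaks in no other list numbered 2948 (19.9%, 95% interval 19.2 to 20.5%). Counted as merged regions, they made up 27.5% of the 10737 regions with a JURKAT peak. The share of a list found in no other was 18.3% in DND41, 18.2% in HPB-ALL and 22.9% in SIL-ALL, so JURKAT lay within the range of the other T-ALL lines (exact permutation p = 1). These peaks were narrow and low in score, with a median width of 202 bp and a median percentile of 32.1, and 61 of them were in the highest decile. Peaks shared with a single other list were likewise low: 829 with SIL-ALL, 735 with HPB-ALL and 538 with DND41 had median percentiles of 40.3, 37.7 and 33.7. Of the peaks shared with a single non-T list, 453 were in K562, 228 in SUP-B15 and 178 in REH.

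**Figure D2:**
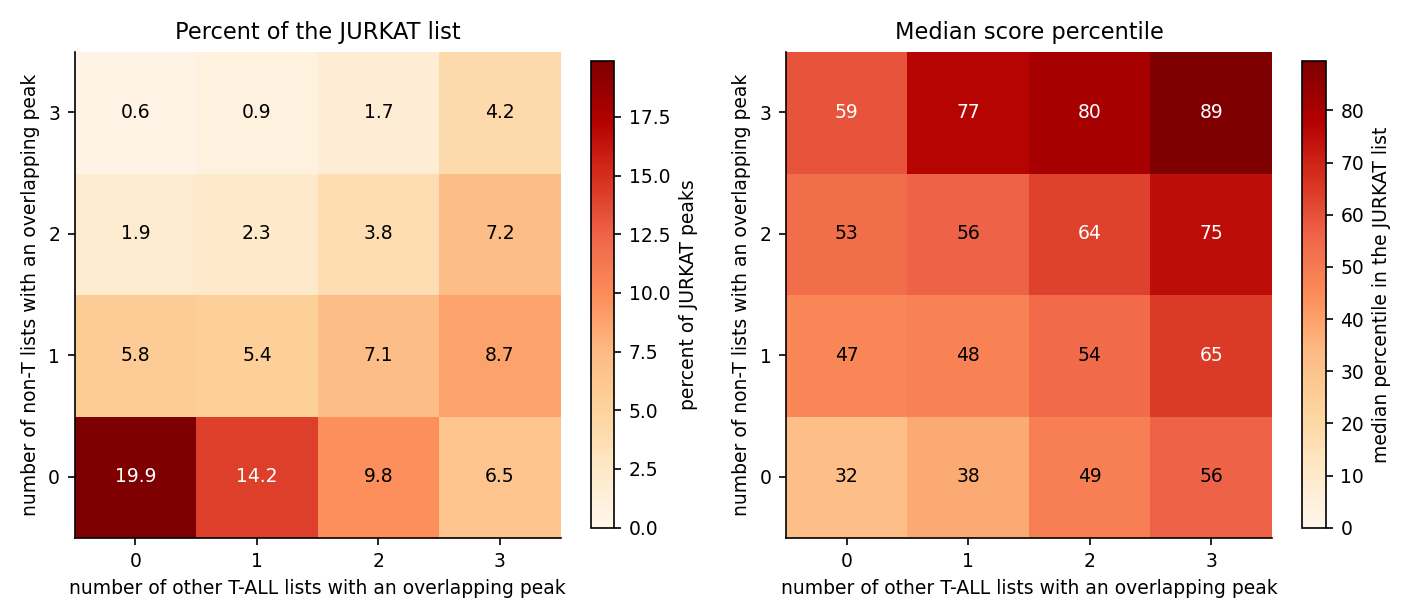
JURKAT peaks by the number of other T-ALL lists (x axis) and of non-T lists (y axis) with an overlapping peak: percent of the list (left) and median score percentile within the JURKAT list (right). The largest cell is the 19.9% of peaks in no other list, and the median percentile goes from 32.1 there to 89.4 for peaks in all 6 other lists.

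Most of the highest-scored JURKAT peaks were found in nearly all lists. Positions are hg19 coordinates counted from 1. Of the 10 highest, 4 shared the top value of 3100: in 1q22 (chromosome 1, 156186227 to 156186660), 16p11.2 (chromosome 16, 30669265 to 30671588), 17q11.2 (chromosome 17, 31149416 to 31149902) and 21p11.2 (chromosome 21, 9825458 to 9827576). The 16p11.2 and 17q11.2 peaks overlapped a peak in all 6 other lists, and those of 1q22 and 21p11.2 in all but K562. The 1q22 and 17q11.2 peaks were 434 and 487 bp wide, against 2324 bp at 16p11.2 and 2119 bp at 21p11.2. Whether any of them is also high in input was not tested.

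The next highest peaks were broad. A peak of 2493 bp lay in 3q27.2 (chromosome 3, 185824668 to 185827160), the band of ETV5, and was listed everywhere but in HPB-ALL. One of 3138 bp lay in 9p24.3 (chromosome 9, 2015556 to 2018693), and was at percentile 100 in HPB-ALL, 97.7 in DND41 and 77.4 in SIL-ALL. A peak of 2835 bp in 8q24.13 (chromosome 8, 126441720 to 126444554) was listed in all 7 lines. The widest JURKAT peak, 3383 bp in 9q22.32 (chromosome 9, 98268906 to 98272288), the band of the Hedgehog receptor gene PTCH1, was shared with SIL-ALL, K562 and SUP-B15 but not with DND41 or HPB-ALL. A peak of 2487 bp in 12q22 (chromosome 12, 93963606 to 93966092), the band of the cytokine signalling inhibitor SOCS2, was in all 7 lists, at percentile 48.0 in HPB-ALL and at 99.0 or above in DND41 and SIL-ALL.

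A peak in 6p21.33 was among the 10 highest of JURKAT but in no other T-ALL list. It spanned 1517 bp (chromosome 6, 30433280 to 30434796) at percentile 99.9, and stood at 100 in K562 and 99.9 in REH. Of the other JURKAT peaks found in non-T lists and no other T-ALL list, the highest was a peak of 2601 bp in 2q13 (chromosome 2, 111874653 to 111877253), the band of the pro-apoptotic gene BCL2L11. It was at percentile 91.8 in REH and 99.9 in SUP-B15. It was followed by a peak in 20q11.23 (chromosome 20, 37351474 to 37353729) shared with K562 and REH, one in 14q22.2 (chromosome 14, 54420429 to 54421928) shared with SUP-B15, and one in 17q25.3 (chromosome 17, 77816523 to 77817802) shared with REH and SUP-B15. No peak is assigned to a gene by its band.

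The strongest peaks of JURKAT alone scored below the 10 highest of the list, and the first of them about level with the first of the peaks in all 3 other T-ALL lists and no non-T list. It lay in 21q21.3 (chromosome 21, 28216323 to 28217661) with a score of 816.41 and a width of 1339 bp. The next were in 15q26.3 (chromosome 15, 100881344 to 100882491; score 739.85), 5q22.3 (chromosome 5, 113697918 to 113699000; 564.26), 17q24.3 (chromosome 17, 70588102 to 70588958; 561.92) and 17q25.3 (chromosome 17, 78912004 to 78912762; 495.41). All 5 stood between percentile 98.1 and 99.4 in JURKAT.

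JURKAT peaks in all 3 other T-ALL lists and no non-T list were led by a narrow peak of 205 bp in Xq22.3 (chromosome X, 108297647 to 108297851; score 815.92). It was at percentile 91.2 in DND41, 30.7 in HPB-ALL and 90.8 in SIL-ALL. It was followed by peaks in 20q13.31 (chromosome 20, 56194071 to 56194895), 5q31.1 (chromosome 5, 133422156 to 133423270), the band of the T-cell factor TCF7, 7p22.3 (chromosome 7, 1979801 to 1980670) and 14q32.31 (chromosome 14, 101908501 to 101909519). The 7p22.3 and 14q32.31 peaks were between percentile 92.0 and 98.5 in the 4 T-ALL lists.

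JURKAT lacked more of the regions common to the other 3 T-ALL lists than any other T-ALL line did, but the HPB-ALL count was close to it. Of the 3866 merged regions with a DND41, HPB-ALL and SIL-ALL peak, 793 (20.5%, 95% interval 19.3 to 21.8%) held no JURKAT peak. The count of regions of the other 3 T-ALL lists without the line was 595 of 3668 (16.2%) for DND41, 760 of 3833 (19.8%) for HPB-ALL and 584 of 3657 (16.0%) for SIL-ALL (JURKAT against the others, two-sided exact permutation p = 0.25, the smallest possible). With lists of the same length the JURKAT count was 522, and with a common score floor, which left 7406 of the JURKAT peaks, it was 1245. These regions were of middling score: the median of their mean percentile in the other T-ALL lists was 56.3, against 77.0 for those with a JURKAT peak. A JURKAT peak lay within 500 bp of 164 of them and within 5000 bp of 271.

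The highest-scored regions without a JURKAT peak lay in 3q12.3 (chromosome 3, 101568056 to 101569491), 18p11.21 (chromosome 18, 13135990 to 13137863), 3q25.2 (chromosome 3, 152879733 to 152880653), 20p13 (chromosome 20, 3026436 to 3027791) and 20q13.33 (chromosome 20, 62371223 to 62372285). Their mean percentile in the other T-ALL lists was between 93.6 and 96.4. The nearest JURKAT peak was 70013, 69478 and 125979 bp away at 3q12.3, 18p11.21 and 20p13, but 1107 bp away at 3q25.2 and 1925 bp at 20q13.33. The 3q12.3 region was also listed in all 3 non-T lines, so JURKAT was the only one of the 7 lists without it.

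Gene starts were examined in a sample of 368 distinct starts on standard chromosomes, 123 of them on chromosome 1, which was not chosen for this study. A JURKAT peak lay within 1000 bp of 109 starts, 29.6% (95% interval 25.2 to 34.5%). The share was 31.3% in DND41, 31.3% in HPB-ALL and 30.7% in SIL-ALL, and 18.2, 15.5 and 16.6% in the K562, REH and SUP-B15 lists. JURKAT was the lowest of the T-ALL lines and above every non-T line as listed, with a difference of -1.45 percentage points from the mean of the other T-ALL lines (two-sided exact permutation p = 0.25, the smallest possible). The difference was -4.35 points with lists of the same length and -12.9 points with a common score floor. With lists of the same length the order against the non-T lines changed: JURKAT had 12.5%, below 18.2% in K562, above 11.1% in REH, and less than 1 percentage point below SUP-B15. Of the 290 protein-coding starts, 34.1% had a JURKAT peak, against 12.8% of 78 starts of other kinds.

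JURKAT peaks piled up at the start itself. Of the peak midpoints around the sampled starts, 50 fell in the 500 bp before the start and 69 in the 500 bp after it, while no bin of that size from 1000 bp outwards held more than 8. The nearest 500 bp on either side held 57 and 91 midpoints in DND41, 60 and 83 in HPB-ALL and 50 and 87 in SIL-ALL, and 16 and 38 in K562. The start lay inside the peak at 40 of the 109 starts, and the median distance of midpoint and start was 257 bp.

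**Figure D3:**
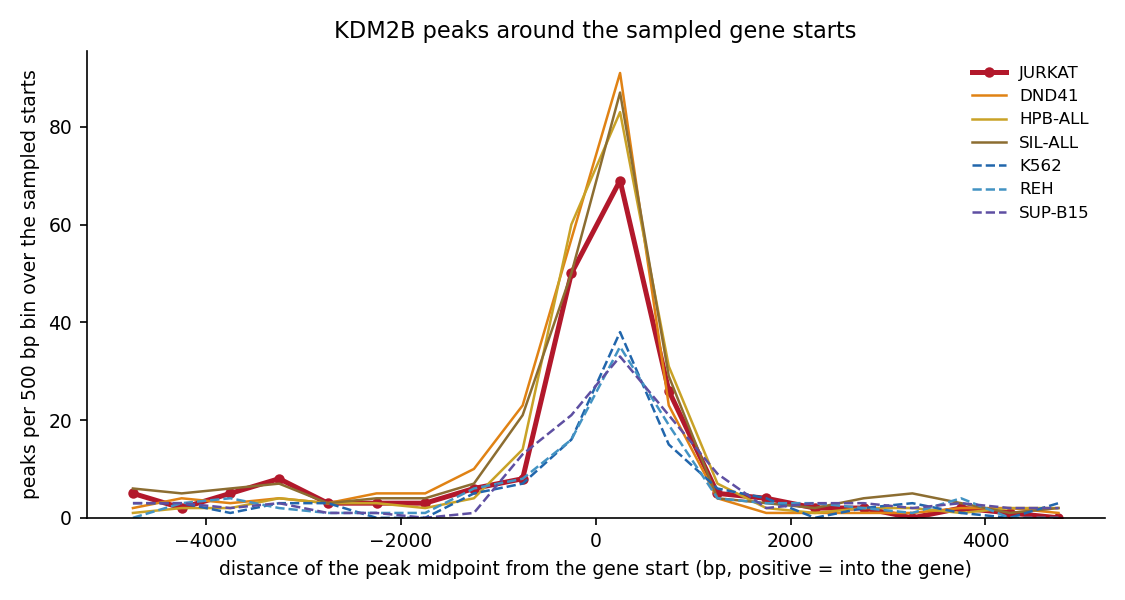
Number of peak midpoints per 500 bp bin (y axis) by distance from 368 sampled gene starts (x axis, bp, positive into the gene), with solid lines for T-ALL and dashed lines for non-T lists. JURKAT has 50 and 69 midpoints in the bins on either side of the start, above the non-T lists, and after the start it is the lowest of the T-ALL lists.

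Sharing at gene starts was counted by start, a list being counted if it had a peak within 1000 bp, and not by overlap of peaks. Of the 109 starts, 97 had a peak in another T-ALL list, 53 in all 3 of them, 10 in all 7 lists, 9 in non-T lists only and 3 in JURKAT alone. By overlap of peaks, 71.8% of all JURKAT peaks were in another T-ALL list, 26.6% in all 3 and 19.9% in none, and these shares are not on the same footing. The highest-scored JURKAT peak was at NFKB2, which encodes a precursor of a non-canonical NF-kB subunit. It stood at percentile 98.8 in JURKAT, 99.5, 93.2 and 87.8 in DND41, HPB-ALL and SIL-ALL, and 69.2, 95.7 and 78.2 in K562, REH and SUP-B15. SLC39A8, a zinc transporter gene, was also at 98.8 in JURKAT, with 98.6, 97.0 and 71.3 in the other T-ALL lists, and 42.0, 89.6 and 87.2 in the non-T lists. At both genes the percentile was thus lowest in K562, but REH stood above SIL-ALL, so T-ALL and non-T lists were not separated.

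Among the other genes of the 20 highest were several that encode receptors or signalling proteins, picked here by function and not a group that stood apart. NGFR, the low-affinity neurotrophin receptor gene, was at percentile 97.5 in JURKAT, 96.9 in DND41, 26.5 in HPB-ALL and 89.4 in SIL-ALL, and was in all 3 non-T lists. FKBP5, a glucocorticoid-induced co-chaperone gene, was at 96.9 in JURKAT and between 96.2 and 99.9 in the other T-ALL lists. RELT, of the tumour necrosis factor receptor family, was at 93.2 in JURKAT and at 95.8, 92.3 and 97.2 in the other T-ALL lists. IL6ST was at 89.8 in JURKAT and at 89.2, 84.7 and 66.2 in the other T-ALL lists, but at 8.07, 18.1 and 18.7 in K562, REH and SUP-B15. IL6ST, whose promoter is shown above, thus stood high in the T-ALL lists and low in the others.

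Other named genes were listed in fewer lines. TAX1BP1, an autophagy receptor gene, USPL1, a SUMO isopeptidase gene, and CCDC138 were in the 4 T-ALL lists and no other, at percentiles 95.2, 90.9 and 86.3 in JURKAT. HSPA4L, a heat shock protein gene, at 93.9 in JURKAT, was otherwise listed in HPB-ALL alone, at 94.1. NFIA, a nuclear factor I transcription factor gene, was at 93.2 in JURKAT and 94.4 in REH, but at 1.92 in SIL-ALL and in neither DND41 nor HPB-ALL. OAT, ornithine aminotransferase, at 91.2, was listed in HPB-ALL and REH, and the histone gene HIST1H4B, at 89.6, in DND41 alone, at 24.4. The remaining genes among the 20 highest were RNU5E-1, CTTN, ATP1B1, GAPDH, DLEU1, CTXN1 and SUN1, at percentiles from 85.7 to 97.9 in JURKAT, and each was listed in at least 2 other T-ALL lines.

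JURKAT alone had a peak at EXOSC2 (percentile 68.4), CCDC102B (15.8) and UFSP2, a UFM1-specific protease gene (2.81). The 9 starts with peaks in non-T lists and no other T-ALL list were KANK1, NPY, MMP17, JAM2, PIK3CD-AS2, ESPN, GLB1L, APP and TMEM132B, named after their values were seen. At NPY, the neuropeptide Y gene, the percentile was 42.7 in JURKAT, and 98.9 and 92.9 in REH and SUP-B15. At APP, the amyloid precursor gene, it was 13.1 in JURKAT, and 89.0 and 71.9 in REH and SUP-B15. The peaks at all 9 were at percentile 57.2 or lower in JURKAT.

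Starts with a peak in the 3 other T-ALL lists and none in JURKAT numbered 16, beside 53 with a peak in all 3 and in JURKAT. Of all merged regions of the 3 other T-ALL lists, 793 of 3866 (20.5%) held no JURKAT peak, though this counts regions and not starts. The same count of starts was not made for the other T-ALL lines, so these absences are not read as a trait of the genes. Of the 16 starts, the 10 with the highest mean percentile were NCOA5, R3HCC1L, CHAMP1, CCNL2, MRPL20-AS1, PAFAH1B2, CAMTA1-DT, CAMTA1, NFATC1 and XPO1. CCNL2 and MRPL20-AS1 share their peaks, as do CAMTA1-DT and CAMTA1, since the starts of each pair lie side by side. NFATC1, a transcription factor gene of T-cell activation, was at percentile 42.7 in DND41, 65.8 in HPB-ALL, 70.3 in SIL-ALL and 81.7 in SUP-B15. XPO1, the nuclear export receptor gene, was at 85.3, 7.89 and 61.4 in DND41, HPB-ALL and SIL-ALL and in no non-T list.

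JURKAT peaks often stood in groups. Joining peaks at most 3000 bp apart gave 8298 clusters, of which 4637 were single peaks. The other 3661 held at least 2 peaks each, and 68.8% of all peaks. Close neighbours were not particular to JURKAT. Of gaps between neighbouring peaks, 38.3% were at most 500 bp, against 44.7, 37.0 and 40.2% in DND41, HPB-ALL and SIL-ALL. In K562, REH and SUP-B15 these were 23.6, 26.2 and 29.1%. Of peaks standing alone 69.0% were found in another list, and of peaks in larger clusters 85.2%. The largest clusters held 13 peaks each, in 3q27.3 (chromosome 3, 187455773 to 187463318), the band of the repressor gene BCL6, and in 17q25.3 (chromosome 17, 77811230 to 77819327). Of these 13 peaks, 10 and 13 were found in another list. Clusters of 10 peaks included 2p16.1 (chromosome 2, 60776403 to 60784789), the band of BCL11A, 2p25.1 (chromosome 2, 8818130 to 8826083), the band of ID2, and 10p14 (chromosome 10, 8092333 to 8098711), the band of GATA3. The other clusters of 10 or more peaks lay in 17q25.3 (12 peaks), 6q27 (11 peaks), and 5q15, 8q24.3, 16q24.1, 16p13.3 and again 17q25.3 (10 peaks each). Genes are named as background on the band only.

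The bands richest in JURKAT peaks were 17q25.3 with 167 peaks, 16p13.3 with 158 and 19p13.3 with 155, followed by 8q24.3, 12q24.31, 11q13.1, 19p13.2, 3p21.31, 5q35.3 and 2q31.1 with 85 to 120. KDM2B itself lies in 12q24.31, where JURKAT had 112 peaks, against 123, 107 and 120 in DND41, HPB-ALL and SIL-ALL. The share of the JURKAT list over the mean of the other T-ALL lists had a median of 1.06 over the 268 bands with at least 20 JURKAT peaks. At 2p25.3 it was 3.67: JURKAT had 31 peaks, 17 of them in no other list, against 7, 10 and 7 in the other T-ALL lists and 20 in REH. At 2p13.2 the ratio was 2.90, at 18p11.32 2.64, at 5q35.2 2.55 and at 5q13.3 2.14. A non-T list had a larger share than JURKAT at 2p25.3 (REH 0.246%, JURKAT 0.209%) and 2p13.2 (K562 0.236%, JURKAT 0.175%). The same held at 5q35.2 (SUP-B15 0.252%, JURKAT 0.195%). At 18p11.32 and 5q13.3 the JURKAT share was the largest of the 7 lists. At 5q35.2 DND41 had 26 peaks against 29 in JURKAT, and HPB-ALL and SIL-ALL had 3 and 5. The lowest ratio was 0.33 at 2p21, where JURKAT had 9 peaks, against 38, 10 and 33 in DND41, HPB-ALL and SIL-ALL. Then came Xp11.4 with 0.36, Xq28 with 0.40, 20q11.22 with 0.45 and 11p15.5 with 0.49. These bands were chosen for their ratio, so the ratios are a description with no test. The high ones were taken from bands with at least 20 JURKAT peaks, a filter that favours high JURKAT ratios. The low ones were taken from bands with at least 20 peaks on average in the other T-ALL lists.

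Several sets of bands were examined by gene content, the gene being background on its band. On the 10 bands of T-ALL transcription factor and driver genes JURKAT had 299 peaks, 2.01% of its list, against 1.78 ± 0.0569% in the other T-ALL lists (SD, n = 3), and the share was higher than in each of them. The non-T lists averaged 1.99 ± 0.249% (SD, n = 3), with K562 above JURKAT at 2.27%. For JURKAT against the other T-ALL lists, the two-sided exact permutation test gave p = 0.25, the smallest possible. The JURKAT share was above the mean of the other T-ALL lists in 7 of the 10 bands, with a median ratio of 1.21. The median of 1.06 given above is not on the same footing. It covers only bands with at least 20 JURKAT peaks, a filter that this set did not pass through. At 1p33, the band of the oncogene TAL1, JURKAT had 17 peaks, against 8, 9 and 8 in DND41, HPB-ALL and SIL-ALL, and 13, 5 and 2 in K562, REH and SUP-B15. As a share of the list this was 0.115% in JURKAT and at most 0.0705% in the other T-ALL lists. K562 stood above JURKAT by that share, at 0.219%. Of these 17 peaks, 9 (52.9%) were in no other list, beside 19.9% of all JURKAT peaks. TAL1 expression was not measured here in JURKAT or in the other lines, and its part in these counts was not tested. At 10p14, the band of the T-cell factor GATA3, JURKAT had 46 peaks, against 22, 28 and 29 in the other T-ALL lists, and 5, 6 and 4 in the non-T lists. Of these 46, 20 (43.5%) were in no other list. In the other 8 bands of the set that share was between 12.5 and 30.8%, and below 19.9% in 4 of them (21q22.12, 6q23.3, 11p13 and 9q34.3). At 21q22.12, the band of RUNX1, JURKAT had 21 peaks, against 10, 17 and 10. At 14q32.2, the band of BCL11B, it had 33, against 54, 26 and 44.

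The bands of the 4 HOX clusters held 170 JURKAT peaks, 1.15% of the list, against 0.879 ± 0.0617% in the other T-ALL lists (exact permutation p = 0.25, the smallest possible) and 1.33 ± 0.233% in the non-T lists (SD, n = 3 each). HOX genes specify position in the embryo and are known Polycomb targets. At 2q31.1, the band of HOXD, JURKAT had 85 peaks, against 59, 43 and 50 in DND41, HPB-ALL and SIL-ALL. At 12q13.13, the band of HOXC, the direction was the other way, with 40 JURKAT peaks and a share 0.91 times the mean of the other T-ALL lists. The 7 bands of T-cell receptor and co-receptor genes held 1.87% of the JURKAT list, against 1.84 ± 0.234% (exact permutation p = 1). The bands of the replication-dependent histone genes held 0.452%, against 0.424 ± 0.128% (exact permutation p = 1). In 6p22.1, 22 of 43 JURKAT peaks (51.2%) were in no other list, and in 6p22.2 6 of 24 (25%), beside 19.9% of the whole list.

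Over 41 chromosome arms the JURKAT share of peaks lay outside the range of the other 3 T-ALL lists on 19, above it on 8 and below it on 11. With so few lists, each is expected to be the highest or lowest on many arms, and the same count was not made for the other T-ALL lines. The 19 arms therefore cannot be read as a trait of JURKAT. None passed a test, and by the design none could: the smallest Benjamini-Hochberg adjusted exact permutation p was 1 against the T-ALL lists and 0.95 against all 6. On 5q JURKAT had 4.14% of its peaks, against 3.53, 3.16 and 3.17% in DND41, HPB-ALL and SIL-ALL, and at most 3.65% in the non-T lists. On 2q it had 4.54%, against 3.73, 4.32 and 3.86%, and here too it was the highest of the 7, as on 10p, 15q and 8p. JURKAT was the lowest of the 7 on 19p, with 2.44%, against 3.99, 2.98 and 3.19% in the other T-ALL lists, and on 20q, with 1.69%, against 2.45, 1.86 and 2.80%. It was also the lowest on 17q, 22q and 7p. The number of DNA copies of each arm in each line was not measured here, and its part in these shares was not tested. When peaks within 500 bp were merged, 12 arms lay outside the range, and 21 did with lists of the same length and with a common score floor.

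**Figure D4:**
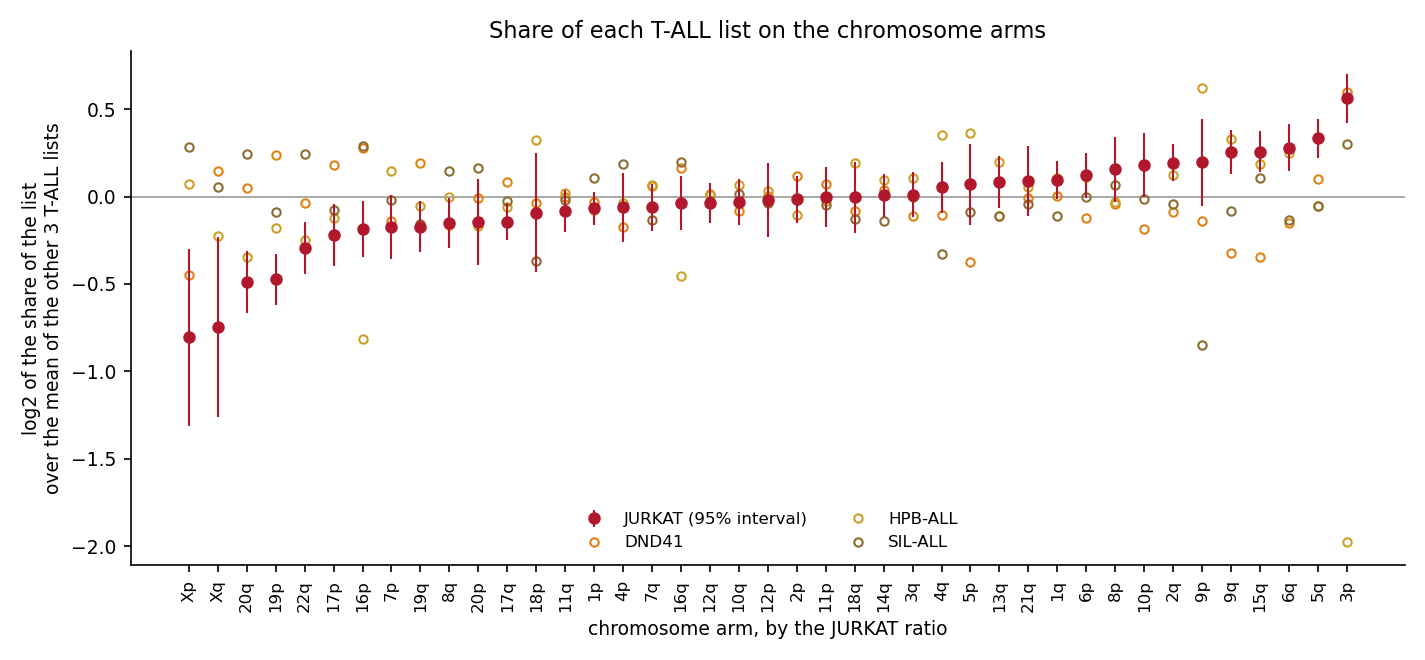
Share of each T-ALL list on 41 chromosome arms (x axis, ordered by the JURKAT value) as log2 of the ratio to the mean of DND41, HPB-ALL and SIL-ALL; the JURKAT bars are the 95% interval of its share. JURKAT stands lowest on Xp and Xq, where its share is 0.57 and 0.60 times the mean (0.66 and 1.57 with lists of the same length), and its high place on 3p sits beside a very low HPB-ALL value.

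Chromosome X held few JURKAT peaks, and fewer of them in CpG islands than in the other T-ALL lines. JURKAT had 61 X peaks, against 96 in DND41, 86 in HPB-ALL and 122 in SIL-ALL, and 36, 18 and 24 in K562, REH and SUP-B15. On Xp this was 0.209% of the list, against 0.268, 0.384 and 0.444%, and on Xq 0.202%, against 0.375, 0.290 and 0.353%. With lists of the same length the Xq ratio turned from 0.60 to 1.57 while the Xp ratio was 0.66. CpG islands, stretches dense in CG that mark many gene starts, cover 0.472% of chromosome X in the table used.

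In JURKAT 40 of the 61 X peaks overlapped an island, 65.6% (95% interval 53.0 to 76.3%), against 74.0, 88.4 and 83.6% in DND41, HPB-ALL and SIL-ALL, and 97.2, 72.2 and 83.3% in K562, REH and SUP-B15. JURKAT was the lowest of the 7 lines (difference from the other T-ALL lines -16.4 percentage points, two-sided exact permutation p = 0.25, the smallest possible). Among the 19 X peaks of JURKAT in lists of the same length the share was 42.1%, against 84.2, 86.7 and 81.0%. Some JURKAT peaks outside islands were very narrow, as given below, and their part in these shares was not tested. Of the 896 X islands, 31 held a JURKAT peak (3.46%), against 41, 50 and 56 in the other T-ALL lists and 27, 11 and 11 in the non-T lists. Islands with a JURKAT peak were longer, with a median of 1141 bp, than the 865 without, with 573 bp. This was not particular to JURKAT: the 72 islands with another T-ALL peak and no JURKAT peak had a median of 995 bp.

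The X peaks of JURKAT outside islands had a higher median percentile than those inside. The 21 outside had a median percentile of 64.8 in the JURKAT list and 15 of them were in no other list. The 40 inside had a median percentile of 32.1, and 16 of them were in no other list. The median width was 170 bp outside and 193.5 bp inside. Several peaks outside were close to the smallest width of the list, 50 bp, and in no other list. Examples were 61 bp in Xq11.2 (percentile 90.7), 55 bp in Xq26.2 (80.4) and 50 bp in Xp21.1 (66.8). Inside an island, a peak of 77 bp in Xp11.4 was at 9.28. The part of such narrow peaks in these values was not tested. The highest-scored X peak of JURKAT, that of Xq22.3 described above, was outside an island. In all, 50.8% of JURKAT X peaks were in no other list, against 45.8, 40.7 and 51.6% of those of DND41, HPB-ALL and SIL-ALL, and against 19.9% of the whole JURKAT list.

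**Figure D5:**
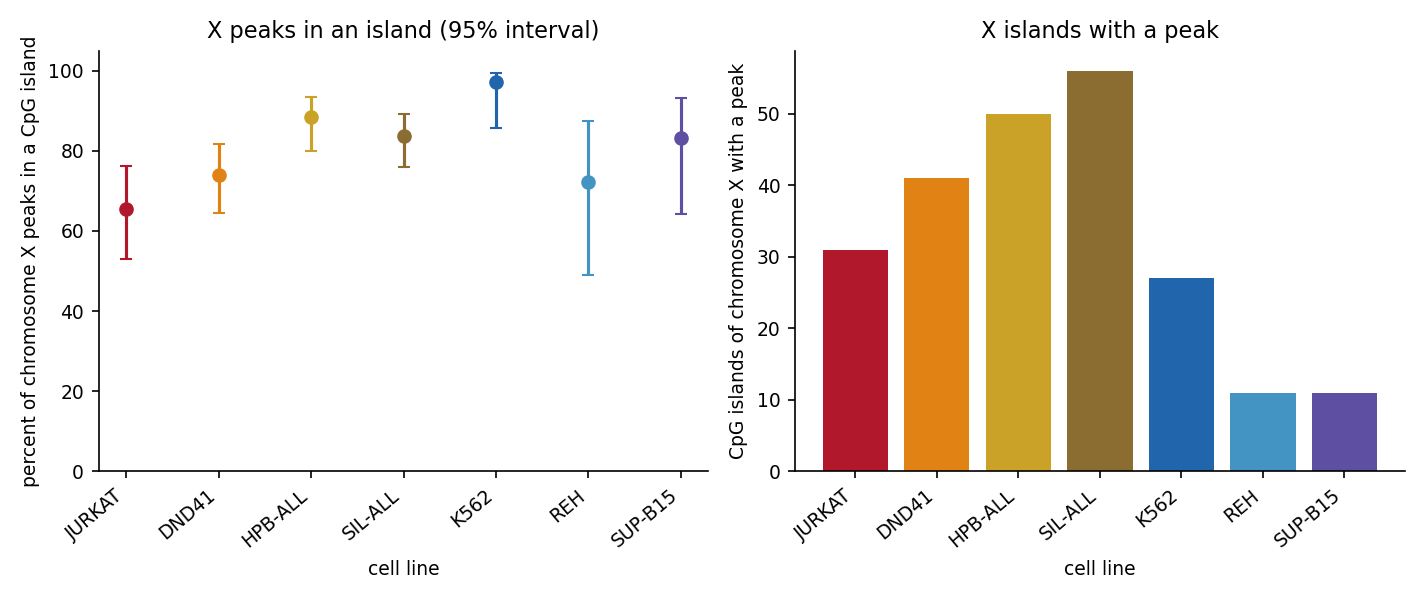
Left, percent of the chromosome X peaks of each line that overlap a CpG island, with 95% Wilson intervals. Right, number of the 896 X islands with a peak in each line; JURKAT has the lowest share, 65.6%, and with 31 islands fewer than the other T-ALL lines.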

How the data were processed

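The peak lists of 7 KDM2B ChIP-seq libraries, 1 per cell line, were used, and 5 input libraries had no list analysed here. The submitters' processing notes name FastQC 0.10.1, Bowtie 1.1.1 and the build hg19. Peak names point to MACS; its version, threshold and control for each list are not stated here. The deposited score of each peak is the authors' own value without a stated unit. It ranked peaks within a list, and only the alternative with a common floor of 80.03 assumed 1 scale. Read depth is unknown, so no interval covers the detection of a peak.

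Peaks overlapped if they shared at least 1 bp. Shares have Wilson intervals, and lines were compared by two-sided exact permutation. Each line is 1 culture, so a p-value covers line and library differences at once. The members and lists were chosen with earlier results of these data known. Regions were named by rank: the 10 highest-scored JURKAT peaks, the 5 highest of each class and the 5 highest regions without JURKAT. Bands were named by count and by ratio, and genes as the 20 highest sampled. The highest ratios needed at least 20 JURKAT peaks in the band, and the lowest at least 20 on average in the other T-ALL lists.

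Bands came from the hg19 table of circlize 0.4.16. Genes and X islands came from example tables of pyranges 0.1.4. Their files name no build: the haplotype contig names of the gene table are those of hg19, the last island ends at 155246568, within the hg19 X length of 155270560, and peaks piled up at both. RefSeq symbols matched 360 of 390 gene rows. Overlap counting was tested on simulated lists. Alternatives were 50% reciprocal overlap, lists of 5942 peaks, peaks at or above the list's median score, the common floor, 500 bp between peaks, autosomes alone, windows of 500 and 5000 bp at starts, and each other line left out. Python 3.11.15, numpy 2.4.6, pandas 2.3.3, scipy 1.17.1 and matplotlib 3.10.9 were used.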

Additional observations from a re-analysis of the deposited data

How the results depend on the processing

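No paired analysis was possible because no line had a replicate. The overlap of JURKAT peaks was higher with T-ALL than with non-T lists under all alternatives run. With 50% reciprocal overlap, 43.2% of JURKAT peaks were in another T-ALL list, 22.0% in a non-T list, 47.9% in no other list and 3.23% in all 3 other T-ALL lists. In the same order the shares were 70.0, 61.4, 17.6 and 25.2% with lists of the same length, 70.4, 47.1, 21.1 and 25.3% for peaks at or above their list's median score, 78.8, 45.4, 14.8 and 33.4% with the common floor, and 81.0, 62.8, 11.9 and 42.9% with 500 bp allowed between peaks. Leaving out each other line gave 63.0 to 71.8%, 38.3 to 49.6%, 21.1 to 25.5% and 26.6 to 35.1%, and a T-ALL minus non-T difference of 19.8 to 24.0 points. Regions of the other T-ALL lists without JURKAT numbered 522 with lists of the same length, 1245 with the common floor, and 795 to 1854 with a line left out, where the highest counts (1683 without DND41, 1854 without HPB-ALL and 1637 without SIL-ALL) need only the 2 remaining T-ALL lists. Gene starts with a JURKAT peak were 15.8% for peaks at or above the median score and with the common floor, and 12.5% with lists of the same length, since fewer JURKAT peaks remain. X islands with a JURKAT peak were 0.781% under the same 3 settings. The median width of JURKAT peaks minus that of the other T-ALL lists was 10.3 bp as listed and 91.3 bp with the common floor. It was -12.3 bp with lists of the same length and -74.5 bp with peaks within 500 bp merged, and the cause was not tested. Arms outside the T-ALL range numbered 12 after that merging, and 21 with lists of the same length and with the common floor. Of 87 alternative values, 38 were the same by the measure used, 47 moved and 2 reversed. With 1 library per line and unknown depth, a missing peak cannot be told apart from an undetected one.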

Other observations

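JURKAT had the lowest share of peaks in Giemsa-negative bands, the light and gene-rich part of the karyotype, among the 7 lists. The share was 64.2%, against 65.7% in DND41, 65.2% in HPB-ALL and 66.8% in SIL-ALL, and 68.0, 69.5 and 69.7% in the K562, REH and SUP-B15 lists (JURKAT against all 6, two-sided exact permutation p = 0.14, the smallest possible). Among JURKAT peaks it was 68.9% for those in all 6 other lists and 60.7% for those in no other list. The 89 JURKAT peaks in all 3 non-T lists and no other T-ALL list had a share of 76.4%, and a median percentile of 59.2 in the JURKAT list.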
